A study of Drosophila melanogaster and Drosophila virilis with 60 samples.

Results

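The 100 genes described here are those of Drosophila virilis whose RNA stood highest above the other stages at pupal stage P4. They were chosen by the measured values, as the 100 of 13685 genes in the D. virilis table with the highest score. The score is the mean value at P4 minus the highest mean among the embryo, larvae, P1, P2, P3, 36 h pupae, 72 h pupae and adults. P5 was not used by the score. Replicate 3 of P3 and replicate 3 of P4 were not used either. The genes are called by their rank in this score.

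The study followed gene expression through metamorphosis in D. melanogaster and D. virilis by RNA-seq of polyadenylated RNA from whole animals, with 60 libraries in all, and asked how far the course of expression is conserved between them. The 30 D. virilis libraries cover 10 stages with 3 biological replicates each. The D. virilis flies were wild type, of strain 9, and were reared at 25 °C. The stages were embryos of 15 h, larvae of the 2nd instar, the pupal stages P1, P2, P3, P4 and P5, pupae of 36 h and of 72 h, and adult males of 5 days, called imago in the labels. Each larval, pupal and adult replicate was a pool of animals, and the sexes were not separated except in adults. As whole animals were used, a tissue that grows or shrinks and a change of RNA per cell cannot be told apart in any value below.

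P1 to P5 are named after a scheme of visible landmarks set up in D. melanogaster. They run from the newly formed white prepupa through the prepupal period and past the eversion of the head, when the animal becomes a pupa proper. In D. melanogaster these steps are timed by pulses of the steroid hormone ecdysone. Short bursts of transcription follow each rise or fall of the hormone, and the epidermis lays down a pupal cuticle before the adult one. The identifiers of the D. virilis table were not paired with gene names in the sources used here, and 0 of the 100 genes could be named. No role, sequence or gene class is therefore given for any of them, and only the 2 with the highest score are printed by identifier.

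The values are variance stabilised (VST) values on a log2 scale, on which a gene without a read has the value 3.09. Inverting the transformation gave normalised read counts, which are used wherever a level is given on a linear scale. The total count per library ran from 2108242 to 11339330, with a median of 8642608. These totals rest on taking the smallest step of a library as 1 count, and they are larger than the read numbers given in the study's text. The reason was not tested, and the counts and floors below hold only on that assumption. The replicate 3 libraries of P3 and P4 stood apart from the others of their stage. Across all genes, P4 replicate 3 had a Spearman correlation of 0.89 with the mean of P4 replicates 1 and 2 and of 0.80 with the 72 h pupae, while P4 replicates 1 and 2 had 0.74 and 0.75 with the 72 h pupae. P3 replicate 3 had 0.89 with the mean of the other P3 replicates and 0.82 with the 72 h pupae, against 0.69 and 0.75 for P3 replicates 1 and 2. These are correlations across genes, which are not independent replicates. Of the stage means compared (P2, P3, P4, P5, 36 h and 72 h), both libraries were closest to their labelled stage, and their correlation with each other was 0.89 as well. The study's text says that a D. virilis replicate at P3 and at P4 varied more than the others, without giving its number. The study left such replicates out of its downstream analyses, and reports that the conservation dynamics between species held with all libraries. Here P3 replicate 3 and P4 replicate 3 were kept out of the choice of the genes, and results that rest on them are given beside the values of replicates 1 and 2.

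Most of the 100 genes had low values through most of development and were abundant at P4. Their median normalised count was 0.876 in embryos, 33.1 in larvae, 15.0 in P1 animals, 13.4 at P2, 36.8 at P3, 4480 for P4 and 484 for P5, 18.9 in 36 h pupae, 17.5 in 72 h pupae and 21.6 in adults. On the VST scale their median was 12.13 at P4 and between 3.52 and 5.71 at the 8 stages of the score outside it, whereas the median of all genes stayed between 6.33 and 7.41 over the 10 stages. Together the 100 genes took 0.364% to 0.791% of all counts in the P3 libraries, 10.9%, 11.7% and 8.39% in the 3 P4 libraries and 2.98% to 3.73% in the P5 libraries. In the 21 libraries of other stages the share was 0.0846% to 0.293%. The P3 shares include P3 replicate 3, which had the highest of them.

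**Figure D1:**
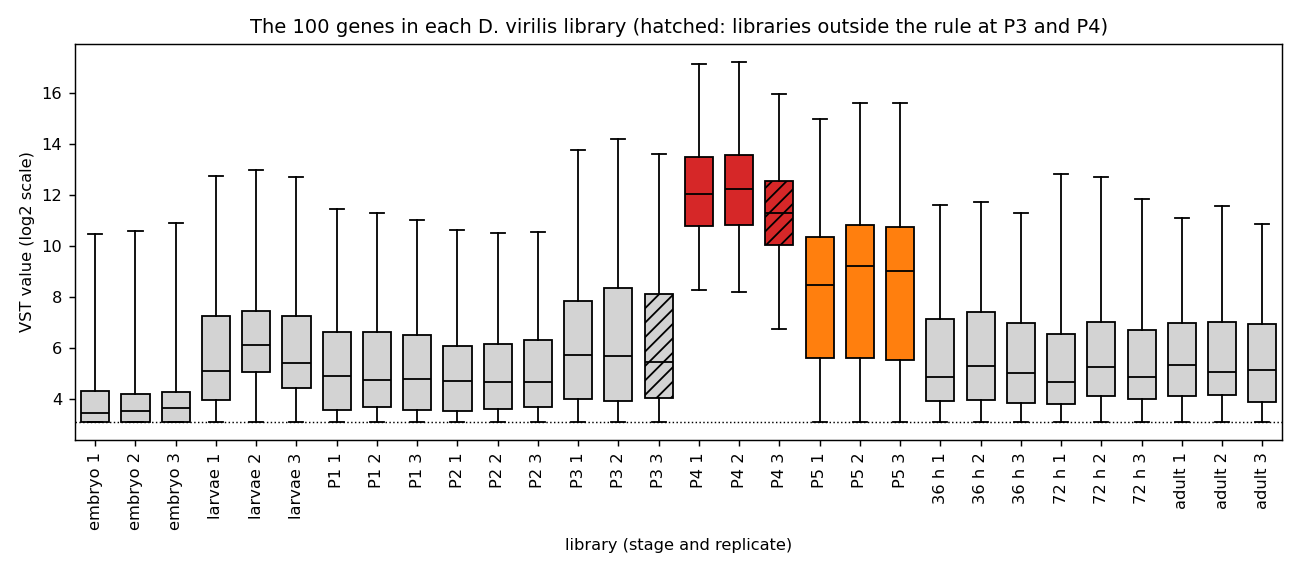
Box plots of the VST values (log2 scale) of the 100 genes in each of the 30 D. virilis libraries, by stage and replicate. The hatched boxes are P3 replicate 3 and P4 replicate 3, and the dotted line is the value of a gene without a read. The P4 medians lie at 11.3 to 12.3, the P5 medians at 8.46 to 9.22, and those of the other libraries at 3.46 to 6.13.

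These levels at P4 follow from the choice and are a description. The scores ran from 2.70 to 9.18 with a median of 4.02. Of all genes, 931 (6.80%) had P4 as the highest of the 9 stages in the score, 270 had a score above 1 and 135 a score above 2. The last genes inside the limit, ranks 98, 99 and 100, scored 2.76, 2.73 and 2.70, and the first 3 outside it scored 2.67, 2.64 and 2.61. There was no gap at the limit. The next 100 genes in the order had a median score of 1.85 and a median VST value of 11.10 at P4 and 8.02 at P3, so they were lower at P4 and higher before it than the 100 genes, with 12.13 at P4 and 5.71 at P3.

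Abundance at P4 was spread over a wide range within the 100. Mean counts of P4 replicates 1 and 2 ran from 284 (rank 53) to 149325 (rank 5) normalised counts. The 5 most abundant, ranks 5, 89, 14, 80 and 65, held 40.0%, 39.0% and 34.3% of the counts of the 100 genes in the 3 P4 libraries. At P1 and P2 rank 5 lay between 6.62 and 17.1 normalised counts. It had 411, 1352 and 1898 at P3, 145208, 153441 and 64055 at P4 and 778, 1127 and 1058 at P5. In 72 h pupae it had 123, 94.6 and 89.0. The P4 libraries of rank 5 lay far above all others, and P3 and P5 overlapped.

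The gene with the highest score, LOC6629311, was nearly confined in its counts to P3, P4 and P5. It had 43.3, 85.5 and 93.2 normalised counts in the P3 libraries, 42127, 48071 and 24005 in the P4 libraries and 178, 295 and 228 in the P5 libraries. Its highest value in the 21 other libraries was 2.53, in an adult library. No library of P4 overlapped with one of another stage, and P5 stood above P3 in all 3 libraries. LOC6629454, the next in score, was lower at P3, P4 and P5 and had 1.66, 4.33 and 0 normalised counts at P3, 4601, 4366 and 1306 at P4 and 67.8, 84.4 and 76.7 at P5. Outside P3, P4 and P5 it was at or below 1.37 except in larvae replicate 2, with 12.3.

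**Figure D2:**
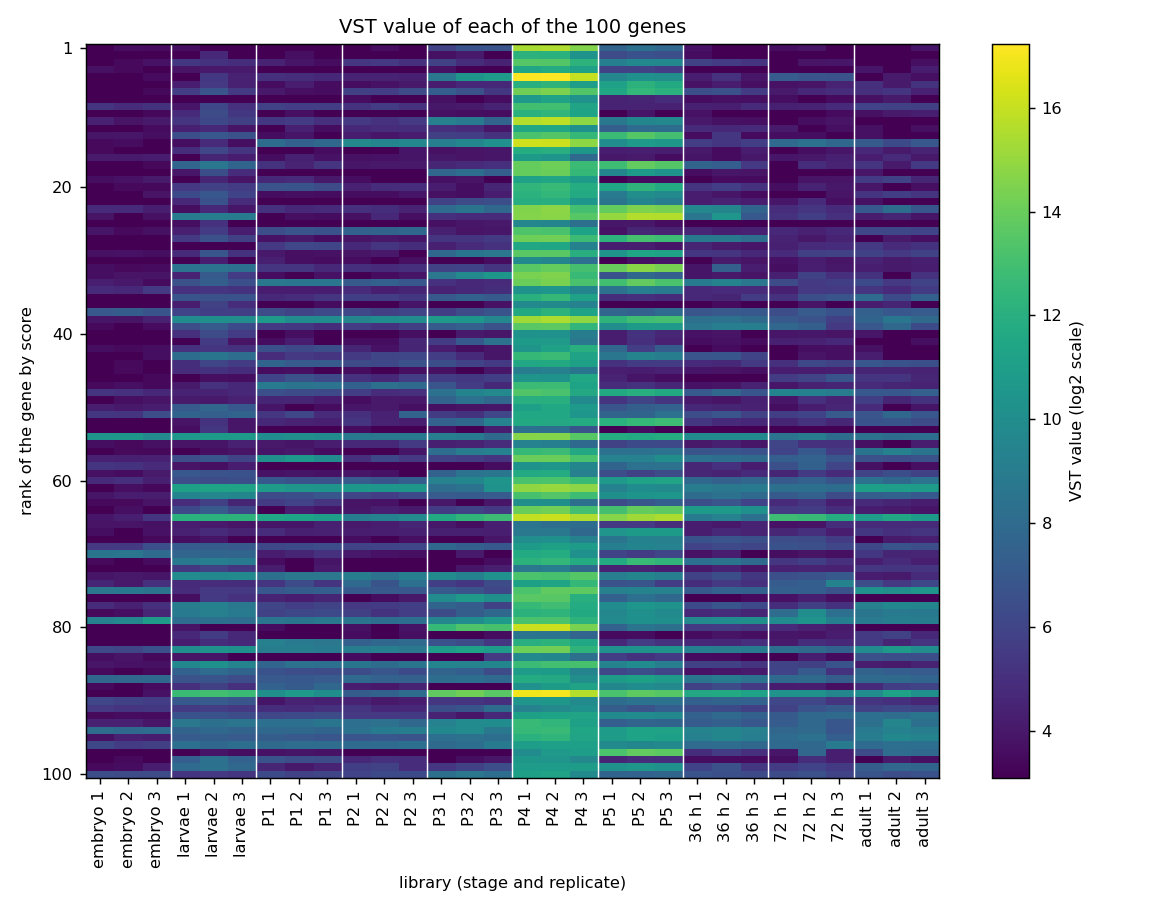
VST values (log2 scale, colour) of the 100 genes, from rank 1 at the top to rank 100, in the 30 D. virilis libraries in order of development. The P4 columns are brighter than all columns outside P4 and P5 for all 100 genes, though genes of low abundance are not bright there. P5 is mixed, and the other columns are dark for most genes.

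P3 was a stage of the score, so the choice already required P4 above P3 in replicates 1 and 2. Whether that difference recurred was tested in the libraries the score had not used, P4 replicate 3 against P3 replicate 3. These are further replicates of the same stages, so a higher value at P4 there follows in part from the choice. Of the 100 genes, 93 were higher in P4 replicate 3 and 0 were lower (limma, Benjamini-Hochberg adjusted p under 0.05 over 13637 genes). Of all genes tested, 4.36% were higher and 4.22% lower. The median difference of the 100 genes was 5.09 on the VST scale, against 0.15 for all genes, and the single differences ran from 0.32 to 8.77. All 100 were above P3 replicate 3 in value, as were 58.8% of all genes. Each stage gave only 1 library to this comparison, and these libraries were assumed to vary like the replicates of the other stages. Both stand apart as described above. In replicates 1 and 2, which chose the genes, the median VST value was 12.13 at P4 and 5.71 at P3.

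On the linear scale the differences were large, which follows in part from a score that takes genes low at P3 relative to P4. The same ratios were not worked out for all genes. In P3 replicate 3, 6 of the 100 genes had no count, 19 had 1 to 3 counts and 75 had more. Those 75 were a median of 30.9 times higher in P4 replicate 3. With the other genes set to the floor of 3 counts in P3 replicate 3, the ratio was 10 or more for 78 of the 100 genes and 100 or more for 42. LOC6629311 differed by 7.78 VST units between P4 replicate 3 and P3 replicate 3. LOC6629454, with no count in P3 replicate 3, was at least 444-fold higher in P4 replicate 3. On the VST scale, which compresses differences of low values, the largest difference was that of rank 24, at 8.77. Its normalised count was 11806 in P4 replicate 3 and 12.7 in P3 replicate 3. That value was 24997 and 26666 in P4 replicates 1 and 2 and 16.6 and 14.1 in P3 replicates 1 and 2, so P4 lay far above P3 in all 3 replicates.

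**Figure D3:**
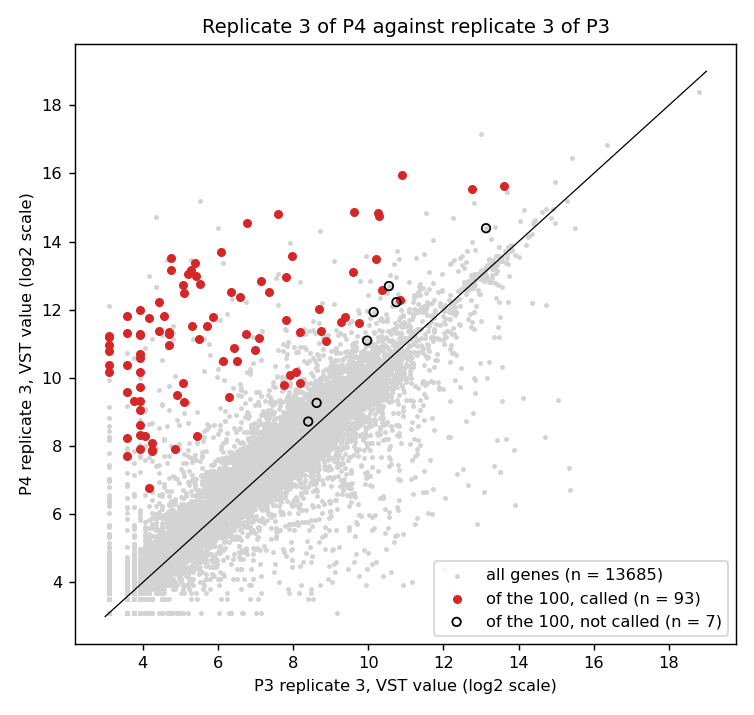
VST value (log2 scale) of each gene in P4 replicate 3 (vertical) and P3 replicate 3 (horizontal), neither used in choosing the genes. Grey points are all genes, red points the 93 genes called higher, open circles the 7 not called, and the line marks equal values. All 100 genes lie above the line.

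The 7 genes that missed the threshold were ranks 32, 41, 59, 76, 79, 80 and 93. Their differences were 0.32 to 2.14 with adjusted p of 0.0667 to 0.92 (limma). They were not low in RNA, with VST values of 8.72 to 14.39 in P4 replicate 3 and 8.40 to 13.14 in P3 replicate 3. In 6 of the 7, P3 was the highest stage after P4. Rank 80 had 69809, 72290 and 21521 normalised counts in P4 replicates 1, 2 and 3 and 6039, 10265 and 8981 in P3 replicates 1, 2 and 3. Its P4 libraries lay above its P3 libraries without overlap, and replicate 3 had the smallest gap. Rank 41 had 1726, 1620 and 405 at P4 and 31.6, 110 and 322 at P3, again with the closest values in replicate 3.

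P4 replicate 3 had lower values of these genes than the other P4 libraries. Of the 100, 87 were below the mean of P4 replicates 1 and 2, compared with 44.2% of all genes, and the median difference was -0.98 VST units, compared with 0.06 for all genes. As replicates 1 and 2 chose the genes for high values, a lower value in a library outside the choice is in part built in, and nothing is read from this count. P4 replicates 1 and 2 were close, with a median difference of 0.11, compared with 0.002 for all genes. Replicate 2 was above replicate 1 in 71 of the 100 genes and in 6896 of all 13685. The means of the other stages were also used by the score. P4 replicate 3 was above the means of all 8 other stages of the score in 100 of the 100 genes, as it was in 10.8% of all genes. All 3 P4 libraries stood above all 24 libraries outside P4 and P5 for 100 of the 100 genes, compared with 2.35% of all genes, and replicates 1 and 2 among them had chosen the genes. The part in these differences of the departure of P4 replicate 3 towards the 72 h pupae was not tested.

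P5, the stage after P4, was left out of the score, so it shows how the RNA of these genes went on. The 100 genes split widely there. The P5 mean was a median of 7.38% of the P4 mean, over a range of 0% to 975%. For 5 genes P5 was above P4 (43.5% of all genes were), for 12 it was at 50% to 100% of P4, for 24 at 10% to 50%, for 33 at 1% to 10% and for 26 under 1%. The shares of all genes in the classes below P4 were not worked out. Genes chosen for a high P4 are lower at P5 in part by the choice, so the classes only describe the 100 genes. As a description, the name of a pulse at P4 fits them unequally, since 17 kept 50% or more of their level at P5. Of the 26 genes under 1%, the median was 9.03 normalised counts at P5 and 2931 at P4.

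**Figure D4:**
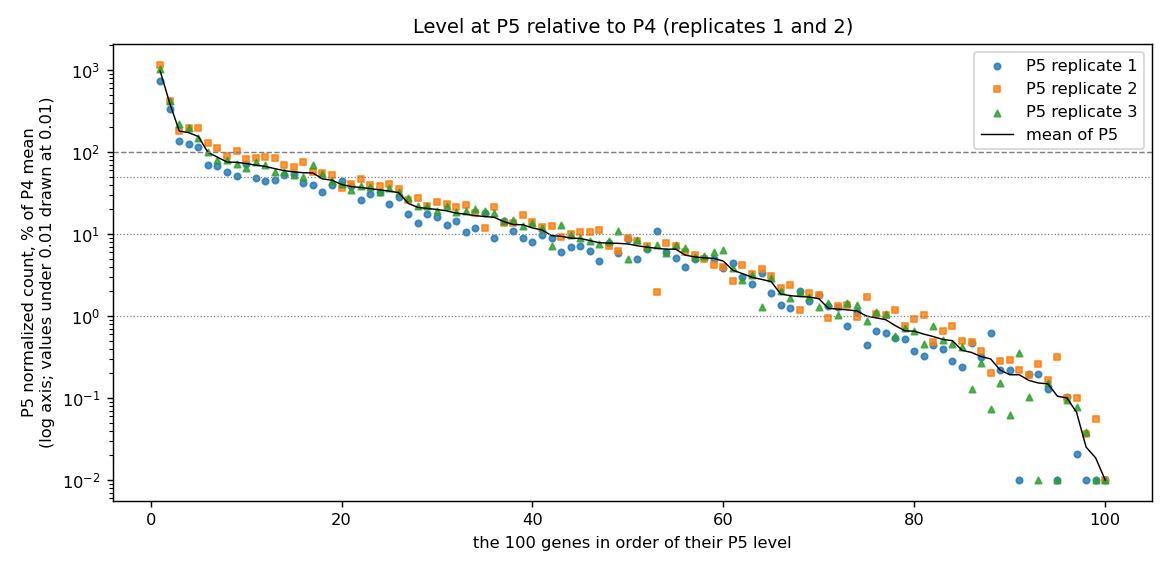
Normalised count in each P5 replicate as a percentage of the mean of P4 replicates 1 and 2 (log axis), with the 100 genes ordered by their P5 level and the mean of P5 as a line. Values under 0.01% are drawn at 0.01%, and the dashed line marks 100%. The genes spread between 975% and 0%. The range over the 3 P5 replicates had a median of 0.62 VST units, compared with 0.43 for all genes.

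Against P4 replicate 3, 77 of the 100 genes were lower at P5 and 4 were higher (limma, adjusted p under 0.05), while 25.2% of all genes were lower and 15.0% higher. The median difference was -2.78 VST units, compared with -0.24 for all genes, and the range was -7.95 to 2.78. Without P5 replicate 2 the count of higher genes was 2. Without reference to P4 replicate 3 alone, all 3 P5 libraries were below all 3 P4 libraries for 84 of the 100 genes (19.1% of all genes) and above them for 5 (14.0% of all genes). P4 replicates 1 and 2 had chosen the genes, so no test is given for these counts. Genes chosen for a high P4 are lower at P5 in part by the choice. The same holds for the counts against P4 replicate 3, a further replicate of that stage. Nothing is read from the number of lower genes in either comparison.

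Against P3 replicate 3, P5 was higher for 56 of the 100 genes and lower for 12, while 16.1% of all genes were higher and 20.4% lower. The median difference was 1.74, compared with -0.17 for all genes, and the range was -5.02 to 10.65. P5 was above the mean of P3 replicates 1 and 2 for 76 genes, and the share of all genes was not worked out for this count. P3 was a stage of the score, which takes genes that are low there relative to P4. The counts against P3 are therefore in part set by the choice, and nothing is read from them. The comparisons with P3 replicate 3 and P4 replicate 3 share the P5 libraries, so their calls are given side by side and not as independent evidence. The shares of all genes in the joint classes below were not worked out, so these counts only describe the 100 genes. At P5, 33 genes were above P3 replicate 3 and below P4 replicate 3, 19 were above P3 replicate 3 and not called against P4 replicate 3, and 4 were above both. Another 32 were below P4 replicate 3 and not called against P3 replicate 3, and 12 were below both.

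The P5 mean was also above the highest of the 8 other stages for 58 of the 100 genes, compared with 5.17% of all genes and with 35 of the next 100 genes in the order of the score, which were chosen in the same way. All 3 P5 libraries were above all 24 libraries outside P4 and P5 for 47 genes, compared with 1.82% of all genes. The values of the 8 other stages were used by the score, which takes genes that are low there relative to P4, so these shares are in part set by the choice and nothing is read from them. P5 replicate 1 was the lowest of the 3 P5 libraries for 70 genes, compared with 40.6% of all genes, with a median of 0.40 VST units below the mean of the other two.

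The genes called higher at P5 than in P4 replicate 3 were ranks 24, 67, 87 and 97. Rank 67 had 1396, 1739 and 1730 normalised counts at P5 and 415, 410 and 220 at P4, without overlap. Its P5 mean exceeded P4 replicate 3 by 2.78 VST units. Rank 97 had 9446, 14839 and 13146 at P5 and 954, 1604 and 1980 at P4. For this gene P5 was the main stage, and P4 replicate 3 was the highest of the P4 libraries. Rank 24 had 32628, 50431 and 50278 at P5 and 24997, 26666 and 11806 at P4, and P5 exceeded P4 replicate 3 by 1.88 VST units. Rank 87 had 1782, 2190 and 1714 at P5 and 3473, 3141 and 1068 at P4, so it was higher at P5 only when set against P4 replicate 3 and lower when set against replicates 1 and 2.

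Other genes kept their RNA at P5 without a call. Rank 64 had 16911, 19352 and 8114 normalised counts at P4, 8670, 15288 and 13731 at P5 and 1753, 1622 and 1155 in 36 h pupae, with overlap between P4 and P5. Rank 65 had 62078, 69563 and 47527 at P4, 26130, 37314 and 46305 at P5 and 7227, 6608 and 3665 in 72 h pupae, and its P5 libraries all lay below its P4 libraries. At the other end was rank 36, which had no count in any of the 3 P5 libraries and 902, 884 and 630 normalised counts at P4. The limit that a count of 0 allows was 2.06, 2.70 and 2.87 normalised counts in P5 replicates 1, 2 and 3, and covers counting error only. Rank 80 was already lower at P5 than before the pulse, with 170, 349 and 295 normalised counts at P5 and 6039, 10265 and 8981 at P3.

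Before P4 most of the genes were low at P3. The P3 mean of replicates 1 and 2 was under 1% of the P4 mean for 55 genes, 1% to 10% for 36 and at least 10% for 9, with a highest value of 15.0%. It was above the P2 mean for 66 of the 100 genes, compared with 44.6% of all genes, and the median difference was 0.48 VST units, compared with -0.02 for all genes. Both stages were used by the score, and no test is given.

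The genes also differed in where, outside P4 and P5, their RNA was highest. That stage was the larvae for 27 genes, P3 for 26, adults for 17, 36 h pupae for 11, P1 for 9, 72 h pupae for 6, and P2 and the embryo for 2 each. The 11 genes with 36 h pupae in that place kept the most at P5, with a median of 37.0% of P4, and for all 11 the P5 mean was above that of 36 h pupae. The 9 genes with P1 kept a median of 0.90%. The median was 26.9% for the 6 genes with 72 h pupae, 6.54% for larvae, 7.05% for P3 and 5.26% for adults. No difference between these groups was tested. Some of the places rest on low values or on 1 library. Rank 53, placed with larvae, had 1.08, 24.6 and 3.26 normalised counts there. For the 17 genes placed with adults, the median in adults was 42.1 normalised counts. The floor of 3 counts was 13.8 normalised counts in adult replicate 2.

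Rank 33 belongs to the genes with 36 h pupae in that place. It had 410, 379 and 376 normalised counts at P1, 20.0, 11.9 and 12.7 at P3 and 17011, 21216 and 9162 at P4. At P5 it had 7922, 14519 and 9595, and in 36 h pupae 453, 666 and 400. Its RNA thus stood high at P4 and P5 with lower levels on both sides and a trough at P3. Rank 14 shows a profile with prepupal RNA before P4, with 833, 684 and 775 at P2, 551, 772 and 1199 at P3 and 75566, 73054 and 29120 at P4. At P5 it was at 1021, 1623 and 1501, with overlap with P3. Rank 89, the most abundant after rank 5, was high in larvae, with 6785, 7998 and 6695, low at P2, with 140, 165 and 253, and at 14090, 18677 and 12488 at P3. Its P4 values were 122622, 136433 and 51249.

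Embryos, a stage used by the score, held the least RNA of these genes. In all 3 embryo libraries, 21 of the 100 had no count, compared with 11.2% of all genes. The same count was 11 at P1 (4.31% of all genes), 10 at P2 (4.39%) and 2 in larvae (12.2%). At the other stages it was at most 6. In larvae, replicate 2 was the highest of the 3 for 77 genes, compared with 41.5% of all genes, and its median was 0.40 VST units above the mean of the other larval replicates. The single larval value of LOC6629454 came from this library.

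A run of 8 consecutive identifier numbers held 7 of the 100 genes, ranks 31, 13, 40, 25, 18, 53 and 29. This run was noticed after the values were seen, and the table does not tie identifier numbers to positions in the genome. Pseudomapping can divide reads between near-identical transcripts, and whether the genes of the run are alike in sequence was not tested. Their P4 means were 13746, 10216, 1224, 740, 16091, 284 and 12507 normalised counts in the order of the run. The P5 level was 155%, 86.6%, 0.999%, 0.359%, 7.83%, 0.105% and 17.5% of P4, so the genes of the run differed in their level at P5, and rank 31 was higher at P5 than at P4. That they stood above the other stages of the score at P4 follows from the choice. The other gene of the run, between ranks 13 and 40, had 27.4, 27.8 and 4.37 normalised counts at P4 and a mean of 34.3 in larvae.

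**Figure D5:**
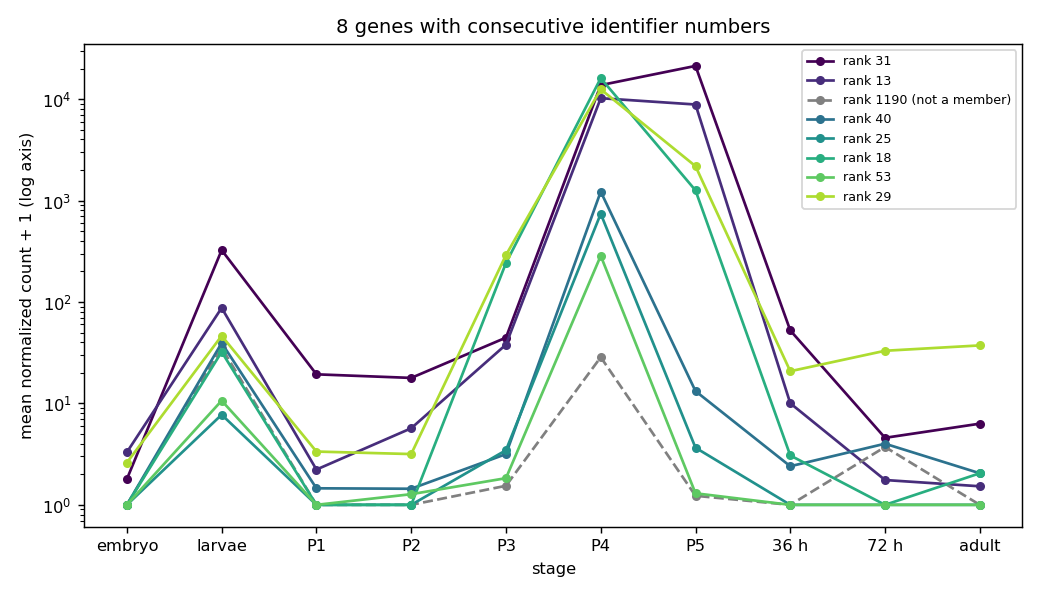
Mean normalised count + 1 (log axis) at each stage for the 8 genes with consecutive identifier numbers, the P3 and P4 means being of replicates 1 and 2. Solid lines are the 7 genes among the 100 and the dashed grey line is the other gene. The 7 lines meet their maximum at P4, except that of rank 31 at P5, and spread over several orders of magnitude at P5.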

How the data were processed

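Whole-animal poly(A) RNA of D. virilis was sequenced at 10 stages with 3 biological replicates. The authors filtered reads with fastp, estimated transcripts with Kallisto on the DvirRS2 transcriptome, summed them per gene and applied the variance stabilising transformation of DESeq2 (versions not given in the sources used here). These deposited VST values are in log2 units and compress differences between low values. The D. melanogaster table was not used here.

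Normalised counts were the inverse of the transformation, with the smallest step of a library taken as 1 count. Of counts up to 50, 100% came out whole within 0.01. Stage means at P3 and P4 were of replicates 1 and 2. Stage differences were fitted with limma 3.58.1 (R 4.3.3; lmFit and eBayes with an intensity trend) on the deposited values of all 30 libraries in 12 groups, P3 replicate 3 and P4 replicate 3 being groups of their own. p-values were Benjamini-Hochberg adjusted over the 13637 genes whose values vary, with a threshold of 0.05. Only P5, P3 replicate 3 and P4 replicate 3 were tested, as the score used the other 25 libraries. The code was tested on simulated data. Python 3.11.15 with pandas 2.3.3 was used for the rest.

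The 100 genes, the gene lists and the comparisons were chosen with earlier results of these data known. The rule for named genes was, as no names could be had, the 2 with the highest score. Genes given by rank as examples were chosen after their values were seen. The gene lists and markers fixed by name could not be applied to these identifiers. The deviations from the stage means at P4 and P3 correlated at 0.68, 0.56 and 0.83 for replicates 1, 2 and 3. Those of P5 with P3 and P4 correlated at -0.60 to 0.34. Deviations within a stage depend on each other, and replicate 3 stood apart at both P3 and P4. The correlations therefore cannot show whether equal replicate numbers pair the samples. Alternatives were the libraries in the fit, the variance prior, a filter at a mean count of 10, pseudocounts of 1 and 10, quantile normalization, a replicate block and leaving out replicates.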

Additional observations from a re-analysis of the deposited data

How the results depend on the processing

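Of the 100 genes, 89 to 95 were called between P4 replicate 3 and P3 replicate 3 over 11 alternatives (93 as reported), 63 to 72 between P5 and P3 replicate 3 over 14 (68 as reported) and 72 to 83 between P5 and P4 replicate 3 over 14 (81 as reported). With the replicate block the counts were 94, 67 and 80. Quantile normalization gave 92, 68 and 79, but moved the calls over all genes for P5 against P4 replicate 3 to 3276 higher and 2198 lower (2043 and 3430 as reported) and their median to 0.10. For P5 against P3 replicate 3 it gave 2753 higher and 1985 lower (2198 and 2785 as reported), and for P4 replicate 3 against P3 replicate 3 it gave 541 and 764 (595 and 575 as reported). On the log2(normalised count + 1) scale, 2 genes in place of 4 were higher at P5 than in P4 replicate 3. Of the 100 genes, 74 were chosen again when P5 was added to the score, and 96 to 100 under the other 8 alternatives. The count with P5 above the 8 other stages was 55 to 59. Counterparts in D. melanogaster were not run, since the identifiers could not be matched. Tests with P3 replicate 3 or P4 replicate 3 rest on 1 library of that stage.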
